A study of Mus musculus with 4 samples.

Results

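Subcutaneous adipose tissue (SAT) of tumor-bearing mice held 117 stromal cells that expressed Dcn and fibrillar collagen without Pi16 or Dpp4, and these fibroblasts and preadipocytes are described here. They were chosen from 4738 SAT cells, and from 8986 cells over the 4 single-cell libraries, by measured counts of unique molecular identifiers (UMI, the tag that marks 1 captured RNA molecule). A cell entered the gate with at least 200 detected genes, 2 or more UMIs of Dcn and 2 or more of Col1a1, Col1a2 and Col3a1 together. It had to have no UMI of Pi16, Dpp4, Pecam1, Cdh5, Ptprc, Cd79a or Cd3e. The gate held 82 of 2841 cells from PBS-treated control mice and 35 of 1897 cells from mice treated with D-CAN, a peptide of D-amino acids that homes to adipose stromal cells (ASC). All mice were FVB (the labels write the genotype as VFB), were fed chow and carried subcutaneous grafts of MycCaP, a prostate cancer line derived from HiMyc mice. Cells came from the stromal/vascular fraction after removal of dead cells and red cells. Age, dose, treatment time and the number of mice behind a library were not given in the sources used here. Tumor grafts of the same groups gave the other 2 libraries. Each condition had 1 SAT library, so no test between conditions was possible. Shares of cells carry exact Clopper-Pearson 95% intervals and summed UMIs exact Poisson 95% intervals, which cover counting error only.

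ASC of the inguinal depot form a hierarchy. Cells that express Pi16 and Dpp4 act as multipotent progenitors and lie in the connective tissue around the depot. They give rise to committed preadipocytes that express Icam1, and to a population marked by F3, the gene of tissue factor (CD142), in which restraint of fat cell formation has been described. Committed preadipocytes lie close to vessels, build basement membrane and begin to express lipid-handling genes before they become adipocytes. The chemokine CXCL12 is secreted by these stromal cells, binds CXCR4 and is scavenged by ACKR3. D-CAN reaches ASC through a cleavage product of decorin, the protein of Dcn, which the gate itself selects.

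Depth differed between the libraries. The control gate held 135837 UMIs, with 502 in the shallowest cell, a median of 994.5 and 10249 in the deepest. The D-CAN gate held 149563 UMIs, with 752, 3852 and 13265. The control gate had 41 of its 82 cells under 1000 UMIs, and the D-CAN gate 4 of 35. Median mitochondrial UMIs were 3.46% and 5.30%. Over all SAT cells the medians were 1707 and 2950.0 UMIs, so the gap was wider within the gate. The SAT libraries shared 2 cell barcodes, none of them in the gate.

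All 14 fibroblast genes that the gate did not use had UMIs in both libraries, among them Gsn, Lum, Pdgfra, Mgp, Sparc and Serping1. Of the genes with the highest counts per 1 M UMIs (CPM) in the gate, Gsn (gelsolin), Apoe (apolipoprotein E), Sparc, Lpl (lipoprotein lipase), Cst3 and Igfbp7 stood among the first 15. Genes of mature adipocytes were at 0 in both libraries for Adipoq, Plin1, Cidec, Retn, Lep and Cfd. Pparg, the master regulator of fat cell formation, had 2 UMIs in each library. The word preadipocyte therefore rests on Lpl, Apoe, Fabp4 and Icam1 and not on Pparg. The committed preadipocyte list, which holds these genes, stood at 14083 CPM in the control and 15886 in the D-CAN gate. Gate cells without a UMI of F3 or Icam1 stood at 5711 and 13153. SAT cells outside the stromal gates stood at 9825 and 7922, so the list was not particular to the gate. Apoe and Lpl were not always found in the same gate cells. Markers of mural cells summed to 125 CPM in the control and 247 in the D-CAN gate, against 688 and 639 in the SAT cells outside the stromal gates. Endothelial markers summed to 110 and 20.1 CPM, Schwann markers to 22.1 and 20.1, and epithelial markers to 7.36 and 0. The 7 mesothelial genes had no UMI. The leukocyte list stood at 1207 and 127 CPM, against 10807 and 12839 outside the gates, with Cd74 as its most abundant gene in both gates (63 and 10 UMIs). C1qa was at 0 in both gates, and Ptprc, Cd79a and Cd3e were held at 0 by the rule. The lymph node stroma list stood at 456 and 2848 CPM, the latter mostly from 395 Cxcl13 UMIs, with Madcam1 at 0 in both gates.

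As a share of all SAT cells, the gate was 2.89% with PBS (interval 2.30 to 3.57) and 1.85% with D-CAN (interval 1.29 to 2.56). The difference of -1.04 percentage points had an interval of -1.92 to -0.12. It came to -0.29 (-1.24 to 0.69) with 500 or more genes per cell, to -0.37 (-1.39 to 0.68) after thinning to 1000 UMIs, and to -0.23 (-1.02 to 0.61) without cells with a cell cycle UMI. With 3 or more UMIs of Dcn and of the collagens it came to -0.65 (-1.48 to 0.22). It did not keep its sign under other denominators. Of cells without Ptprc, Cd79a and Cd3e, the gate was 6.88% of 1192 control and 8.47% of 413 D-CAN cells. Of all stromal cells on either side of the Pi16/Dpp4 step, it was 48.0% of 171 and 52.2% of 67. Pi16/Dpp4-positive cells that passed the other steps numbered 89 and 32. At the edge of the rule, 12 control and 2 D-CAN cells had exactly 2 Dcn UMIs, and 16 and 0 were kept out by having 1. Another 23 and 7 cells were kept out by a single UMI of Pi16 or Dpp4. How many of the shallow control cells passed because Pi16 or Dpp4 was missed was not tested.

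**Figure D1:**
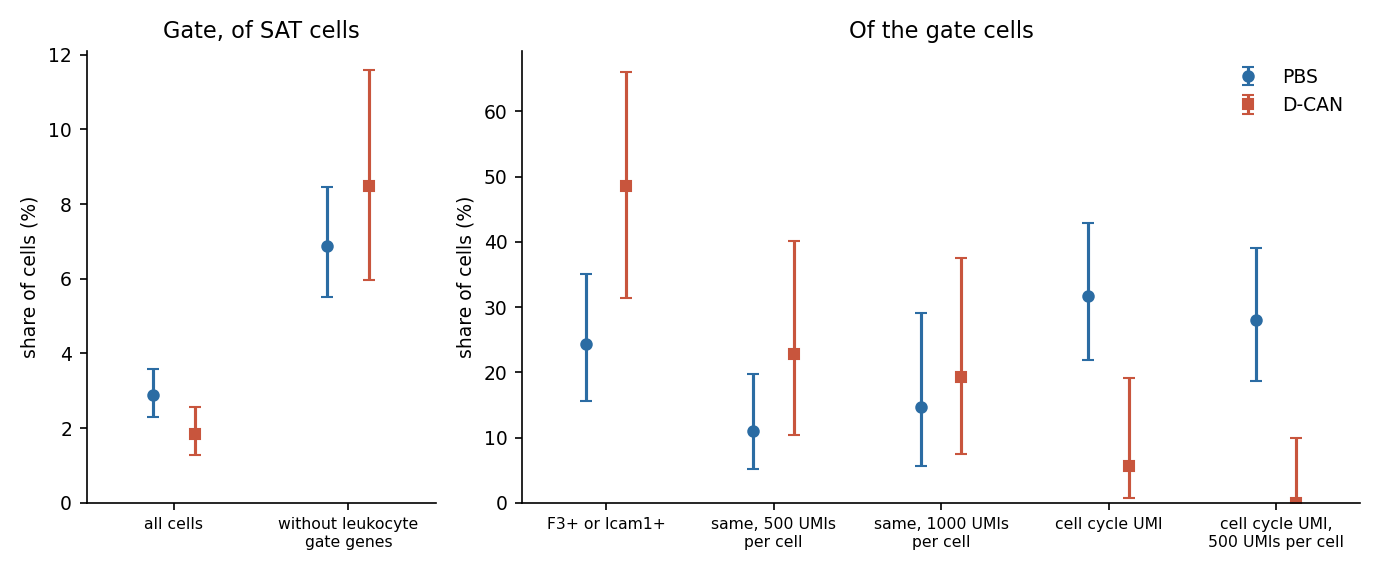
Shares of cells (y axis, %) in the PBS and D-CAN SAT libraries, with exact 95% intervals that cover counting error only. On the left, the gate was 2.89% and 1.85% of all cells but 6.88% and 8.47% of cells without the leukocyte genes of the gate. On the right, F3+ or Icam1+ cells were 24.4% and 48.6% of the gate as sequenced and 11.0% and 22.9% at 500 UMIs per cell, and cells with a cell cycle UMI were 31.7% and 5.71%.

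F3 and Icam1 divided the gate. At least 1 UMI of either was found in 20 gate cells with PBS, which is 24.4% of 82 (interval 15.6 to 35.1). With D-CAN there were 17 such cells, 48.6% of 35 (interval 31.4 to 66.0). F3 alone was found in 10 and 8 cells, Icam1 alone in 5 and 6, and both in 5 and 3. The difference of 24.2 points (interval 3.92 to 43.7) moved with depth. With each cell thinned to 500 UMIs, 9 PBS cells (11.0%) and 8 D-CAN cells (22.9%) were positive, a difference of 11.9 points (interval -3.38 to 30.1). At 1000 UMIs, where 41 control and 31 D-CAN cells were deep enough, 14.6% and 19.4% were positive, a difference of 4.72 points (interval -14.1 to 25.0), so that both intervals included 0. F3 came to 26 UMIs in the control gate, at most 4 in 1 cell, and to 51 in the D-CAN gate, of which 25 lay in 1 cell. Icam1 came to 11 and 16 UMIs. Among cells with Ptprc, Cd79a or Cd3e, an F3 UMI was found in 0.243% of 1649 cells with PBS and 0.270% of 1484 with D-CAN. Their median depths were 2120 and 2944.5 UMIs, and whether these F3 UMIs were background or expression was not tested. The F3 shares of the gate, 18.3% and 31.4%, lay far above these shares. Leukocytes themselves express Icam1 (15.6% and 17.8% of those cells), so they give no background for it.

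Cxcl12 (chromosome 6 of GRCm38, 117168535 to 117181367) stood at 1848 CPM in the control gate (interval 1626 to 2091, 251 UMIs) and at 1718 CPM in the D-CAN gate (1515 to 1942, 257 UMIs). Its log2 ratio of D-CAN over PBS was -0.10 (interval -0.36 to 0.15). It came to 0.28 with each cell weighted equally, to 0.55 without cells with Ccl19, Ccl21a or Cxcl13 and to 0.64 at 500 UMIs per cell, so its direction depended on these choices. Per cell the lowest, median and highest UMI counts were 0, 0 and 53 with PBS and 0, 2 and 30 with D-CAN. It was found in 39 PBS and 25 D-CAN gate cells (47.6% and 71.4%), against 5.52% and 1.95% of the cells with a leukocyte gate gene. SAT cells outside the stromal gates stood at 369 and 271 CPM but held 2328 and 1905 Cxcl12 UMIs. Most Cxcl12 UMIs of each library thus lay outside the gate. At 500 UMIs per cell the shares in the gate were 28.0% and 34.3%. Pdgfra (chromosome 5, 75152292 to 75198215), the receptor that marks adipose fibroblasts, stood at 523 and 842 CPM, a log2 ratio of 0.68 (0.26 to 1.13). It passed 2-fold with each cell weighted equally (1.29) and without cells with Ccl19, Ccl21a or Cxcl13 (1.19). Pdgfrb, the receptor shared with mural cells, stood at 191 and 227 CPM (0.24, interval -0.53 to 1.04). Cxcl12, Pdgfra and Pdgfrb were found together in 8 control and 11 D-CAN cells, a count that rises with depth. Of their partners, Cxcr4 had 3 and 0 UMIs, Pdgfa 1 and 4, and Pdgfb none.

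Over the whole gate, 83 of 1150 genes with 30 or more UMIs were at least 2-fold higher (7.22% of those tested) and 107 at least 2-fold lower (9.3%) with D-CAN than with PBS, where the 2-fold rule stands in for a test. The median log2 ratio of all tested genes was -0.01. Among the genes furthest apart on the lower side were genes of cell division, of the interferon response and of secreted matrix proteins. Top2a (DNA topoisomerase) and Ube2c (a mitotic ubiquitin-conjugating enzyme) had 30 and 31 UMIs in the control gate and none in the D-CAN gate, at least 11.0-fold and 11.4-fold lower against 3 counts over the group. Cthrc1, a secreted collagen triple helix protein of activated fibroblasts, had 74 UMIs and 1 (log2 -5.77, interval -11.67 to -3.83). Nov (CCN3, a matricellular protein) had 84 and 1, and Irf7, a transcription factor of the interferon response, had 44 and 1. Isg15, a ubiquitin-like protein induced by interferon, had 68 and 5 (-3.78, interval -5.57 to -2.61). Ifi27l2a had 224 and 17, Vcan (versican) 53 and 5, and Sema3c 38 and 1. Fn1, the gene of fibronectin, outside the ranked genes, stood at 1494 and 140 CPM (-3.38, interval -4.14 to -2.76). Car3, a carbonic anhydrase of adipocytes, headed the list, but 44 of its 45 control UMIs lay in 1 cell.

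Part of these low values in the D-CAN gate went with 1 set of control cells. At least 1 UMI of a list of 10 cell cycle genes, Top2a and Ube2c among them, was found in 26 cells of the control gate (31.7%, interval 21.9 to 42.9). The D-CAN gate had 2 such cells (5.71%, interval 0.70 to 19.2), each with 1 UMI. Of the 26 control cells, 24 had 0 or 1 Gsn UMI. Outside them 13 of 56 PBS cells had so little Gsn, and in the D-CAN gate 2 of 35. Over the whole gate the lowest, median and highest Gsn UMI counts of a cell were 0, 2 and 250 with PBS and 0, 84 and 629 with D-CAN. The set was not shallow, with a median of 1348.5 UMIs per cell against 836.5 in the other 56. At 500 UMIs per cell, 23 PBS cells (28.0%) still had a cell cycle UMI and no D-CAN cell had, where 0 of 35 allows up to 8.57%. Among Pi16/Dpp4-positive cells the counts were 6 of 89 and 1 of 32.

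**Figure D2:**
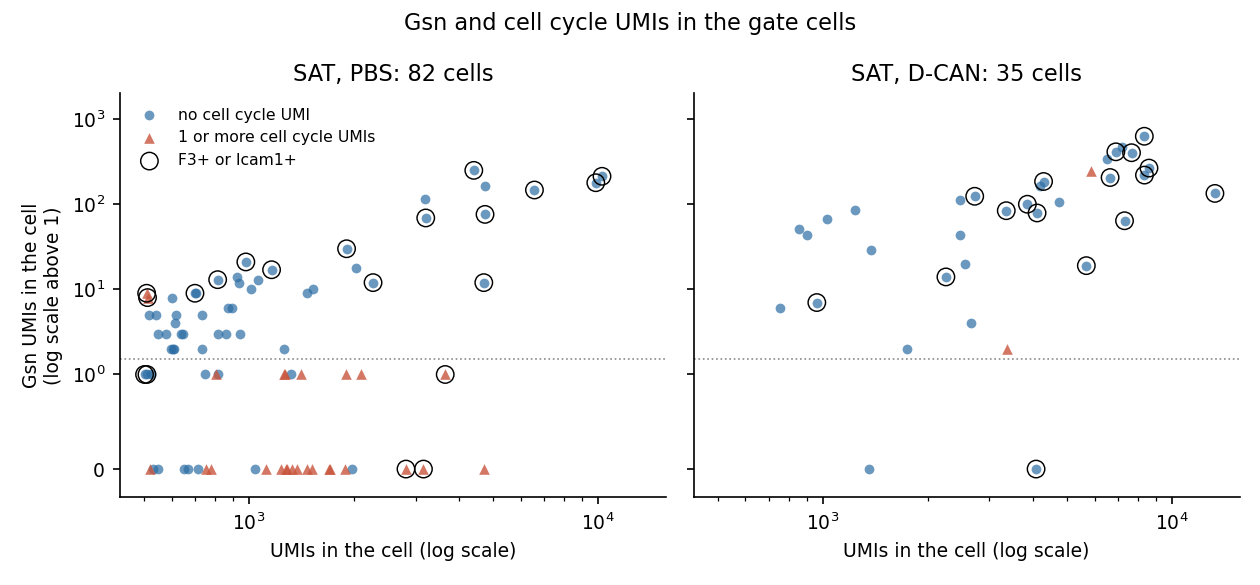
Gsn UMIs (y axis, log scale above 1) against all UMIs (x axis, log scale) in each gate cell of the PBS (82 cells) and D-CAN (35 cells) libraries. Triangles mark the 26 and 2 cells with a cell cycle UMI, circles the 20 and 17 F3+ or Icam1+ cells, and the dotted line parts cells with 0 or 1 Gsn UMI from the rest. Of the 26 control triangles, 24 lie at 0 or 1 Gsn UMI, and so do 13 of the other 56 control cells.

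The 26 control cells differed from the rest of the gate in more than the cell cycle. Gsn stood at 571 CPM in them (interval 366 to 850), at 16017 in the other 56 control cells and at 31652 in the D-CAN gate. Apoe had 1 UMI in the 26 cells and 1336 in the other 56, and Lpl had 4 and 230. Of the 1336 Apoe UMIs 919 lay in 4 cells, and 28 of the 56 cells had any (median 0.5). Col1a1, which the rule used, stood at 16668 and 7524 CPM. Cthrc1 stood at 1452 and 139 CPM, Nov at 1738 and 117, Fn1 at 2691 and 959, Irf7 at 833 and 95.9, and Isg15 at 952 and 298. The interferon list as a whole stood at 12143 and 12617 CPM, so only some of its genes were higher in the 26 cells. Outside them lay 105 of 224 Ifi27l2a and 90 of 203 Fn1 control UMIs. Cxcl12 stood at 1071 CPM in them and at 2195 in the others, and Pdgfra at 548 and 512. Both Cxcl12 levels, and so their order, rested on few cells. Of the 206 Cxcl12 UMIs of the other 56 cells, 149 lay in 4 cells. Of the 45 in the 26 cells, 14, 13 and 10 lay in single cells. For comparison, the same gate in the tumor libraries, taken whole (46 PBS and 34 D-CAN cells), had Gsn at 819 and 504 CPM, Fn1 at 2707 and 2787, Cthrc1 at 840 and 716, and Isg15 at 399 and 476. In these tumor cells 15 of 46 and 10 of 34 had a cell cycle UMI, and Top2a stood at 50.9 and 21.5 CPM, against 221 in the whole control SAT gate. No gate barcode of a SAT library was found in a tumor library.

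Leukocyte transcripts also moved with this set. The leukocyte list had 87 UMIs in the 26 cells (2072 CPM) and 77 in the other 56 (821 CPM). Of its 15 genes 9 had a UMI there, led by Cd74 with 43 UMIs in 16 cells, Tyrobp with 16 and Igkc with 12, and 22 of the 26 cells had at least 1. Lyz2, C1qa and Ms4a1 were at 0, and Ptprc, Cd79a and Cd3e by the rule. Top2a in the SAT cells outside both stromal gates stood at 54.1 CPM with PBS and 47.3 with D-CAN, where 566 of 2670 and 475 of 1830 cells had a cell cycle UMI. Isg15 stood at 82.6 and 51.3 CPM there. No doublets were removed, and the part of leukocyte RNA or doublets in this set was not tested.

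The promoters of 2 of these genes are shown because both, 1 of cell division and 1 induced by interferon, were among the 10 lowest D-CAN over PBS ratios. Each is the 200 bases before the RefSeq start on GRCm38.p6, 5′ to 3′ on the gene's strand. For Top2a (chr11:99024190-99024389, minus strand) the capitals mark CCAAT and TTTGAA on either strand, the CCAAT box and the core of the cell cycle homology region. For Isg15 (chr4:156200819-156201018, minus strand) they mark GAAANNGAAA on either strand, the core of the interferon-stimulated response element.
Top2a: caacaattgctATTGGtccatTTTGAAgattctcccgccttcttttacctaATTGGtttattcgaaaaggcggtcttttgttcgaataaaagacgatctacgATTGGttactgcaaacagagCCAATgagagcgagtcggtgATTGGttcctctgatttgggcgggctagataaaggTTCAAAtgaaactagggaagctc
Isg15: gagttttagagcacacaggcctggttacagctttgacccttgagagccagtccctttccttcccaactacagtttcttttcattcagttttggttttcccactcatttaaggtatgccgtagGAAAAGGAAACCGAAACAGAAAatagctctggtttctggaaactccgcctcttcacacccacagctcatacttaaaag
Top2a had 5 CCAAT and 2 TTTGAA matches, and Isg15 3 overlapping GAAANNGAAA matches. Of the 8 cell cycle genes matched in the RefSeq table, 7 had CCAAT and 5 TTTGAA in this window, against 29.3% and 12.5% of 32851 promoters. Of 13 matched interferon genes, 7 had GAAANNGAAA, against 2.27% of promoters. A match describes the letters of the window and no binding.

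On the higher side in the D-CAN gate, Smoc2, a secreted calcium-binding matricellular protein, had 12 UMIs in 8 control cells and 127 in 19 D-CAN cells (88.3 and 849 CPM, log2 3.21, interval 2.41 to 4.26). Crispld2, a secreted protein responsive to glucocorticoids, had 4 and 52 UMIs, the latter in 20 of 35 cells (3.41, interval 2.12 to 5.49). G0s2, an inhibitor of adipose triglyceride lipase, had 3 and 33, and Hsd11b1, the enzyme that regenerates active glucocorticoid, 6 and 57. Abca8a had 15 and 103, Cxcl14, a chemokine of fibroblasts, 37 and 208, Fmo2 8 and 46, and Timp3, an inhibitor of matrix proteases, 7 and 37. Lpl stood at 1723 and 4533 CPM (1.39, interval 1.18 to 1.62). Cxcl13 came first by rank with 16 and 395 UMIs, but 345 of the 395 lay in 1 cell that had 2 Dcn UMIs. Of the 4079 UMIs of that cell, 3 were of the collagens of the rule and 6 of the leukocyte list. It had 0 UMIs of Gsn, Pdgfra and Lpl, and whether it is a fibroblast or preadipocyte was not tested. For Mfge8, 66 of 86 D-CAN UMIs lay in the same cell.

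Without the cells with a cell cycle UMI, which left 56 control and 33 D-CAN cells, 54 genes were 2-fold higher and 30 lower of 859 tested. Of the 107 genes lower in the whole gate, 50 still had 30 UMIs and 24 were still 2-fold lower. Of the 83 higher, 72 could be compared and 38 were still higher. Ifi27l2a (-3.17), Isg15 (-3.24) and Fn1 (-2.65, interval -3.44 to -1.98) stayed on the lower side. Top2a and Ube2c are on the cell cycle list, so the restriction itself left them no UMI. Cthrc1 (13 and 1 UMIs), Nov (11 and 1), Irf7 (9 and 1), Sema3c (17 and 1) and Vcan (17 and 5) no longer reached 30 UMIs but were still lower in the D-CAN gate, with 95.9 to 181 CPM in the control and 7.13 to 35.6 with D-CAN. On the higher side Smoc2 (2.74), Crispld2 (3.24), G0s2 (2.63), Hsd11b1 (2.46), Abca8a (2.16), Cxcl14 (1.95) and Fmo2 (2.26) remained past 2-fold. Restricting the gate to cells with 2 or more Gsn UMIs (45 and 33 cells) gave 53 higher and 33 lower of 844. Cxcl13 then came to 0.84 and Mfge8 to 0.06, so both values rested on the same D-CAN cell, which had 0 Gsn UMIs. Both restrictions were chosen after seeing the data. Apoe moved from -0.46 in the whole gate to -0.99 and -1.25 under them, but turned to 0.84 with each cell weighted equally, to 0.29 without cells with Ccl19, Ccl21a or Cxcl13 and to 0.84 at 500 UMIs per cell. Lpl moved from 1.39 to 0.92 and 0.82. Gsn moved from 1.49 to 0.998 without the cells with a cell cycle UMI. The other restriction selects on Gsn itself. Cxcl12 moved from -0.10 to -0.30 (interval -0.57 to -0.03) and -0.45 (-0.73 to -0.18) under the same restrictions, beside the positive values given above.

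**Figure D3:**
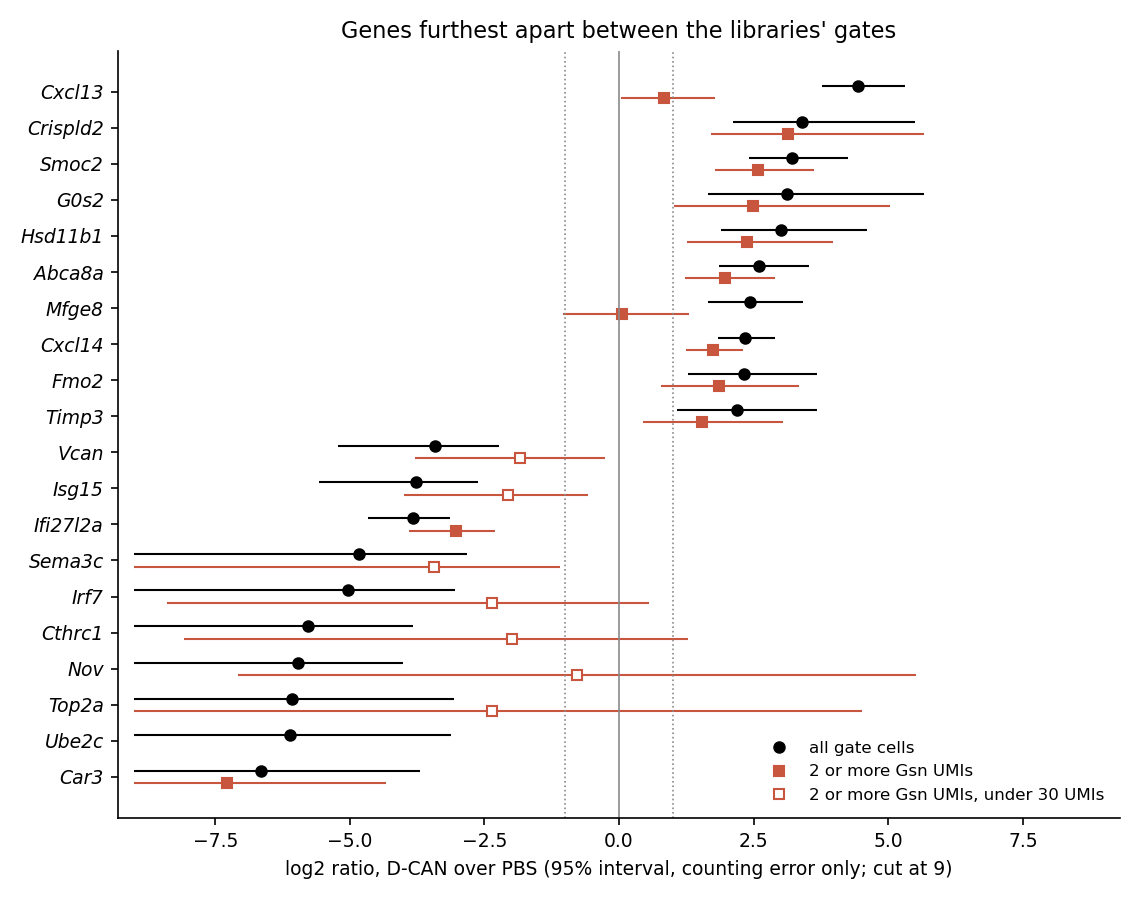
Log2 ratio of D-CAN over PBS (x axis, 95% interval from counting error, drawn up to 9 on each side) for the 10 highest and the 10 lowest genes by ratio. Black points use all gate cells, red squares cells with 2 or more Gsn UMIs, and open squares have under 30 UMIs. Cxcl13 moves from 4.44 to 0.84, while Smoc2 moves from 3.21 to 2.58 and Ifi27l2a from -3.82 to -3.03. Ube2c has no UMI left and no red square.

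By list, the D-CAN over PBS ratios were as follows. Of the committed preadipocyte list, 4 of 10 tested genes were 2-fold higher (Lpl, Plin2, Col4a1 and Col15a1) and none lower, with a median of 0.75, beside 7.22% higher and 9.3% lower of all genes tested. Without the cells with a cell cycle UMI, Lpl (0.92), Plin2 (0.79) and Col4a1 (0.67) were short of 2-fold and Col15a1 stood at 1.38. Of the 8 interferon genes tested, 3 were lower (Isg15, Irf7 and Bst2) and none higher, with a median of -0.82. Of their control UMIs, 44 of 57 for Bst2, 35 of 44 for Irf7 and 40 of 68 for Isg15 lay in the 26 cells with a cell cycle UMI. H2-D1 (-0.30) and Psmb8 (-0.14), which serve antigen presentation, stood short of 2-fold. Of the progenitor list 2 of 7 were lower (Sema3c and Fn1). Among 11 collagens other than those of the rule, Col4a1 and Col15a1 were higher and Col14a1 lower (56 and 15 UMIs). Ogn and Prelp were higher among 5 small leucine-rich proteoglycans. Of 6 secreted chemokines Cxcl14 and Ccl11 (1.32) were higher and Ccl2 (-2.82) and Ccl8 (-2.27) lower. Without the cells with a cell cycle UMI, Ccl11 stood at 0.82 and Ccl2 at -2.42, and Ccl8 had 6 and 8 UMIs. Of 13 immediate early and heat shock genes, which respond to tissue dissociation, Fos (1.08, and 0.60 without those cells) was higher and Hspb1 (-3.07) lower, with 55 of 95 control Hspb1 UMIs in 1 cell. Timp3 was the only one of 8 matrix proteases and inhibitors past 2-fold, Igfbp5 (-1.24) of 6 genes of the IGF axis, and Sfrp2 (-2.18) of 2 WNT and BMP modulators. Sfrp2 was at 5 and 12 UMIs without the cells with a cell cycle UMI. Hemoglobin transcripts came to 1 and 6 UMIs, and tendon and cartilage genes to 88.3 and 120 CPM.

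The F3+ or Icam1+ cells were deeper than the rest of the gate, with medians of 2539.5 against 907.5 UMIs in the control and 5682 against 2471 in the D-CAN library. They held 5 of the 26 control cells with a cell cycle UMI and neither of the 2 D-CAN cells. The leukocyte list stood at 491 CPM in them and 1830 in the rest with PBS, and at 142 and 97.6 with D-CAN, and its part in the differences was not tested. Over both libraries, 75 of 1149 genes (6.53%) were 2-fold higher and 72 (6.27%) lower in them. Because the libraries enter the groups unequally (20 against 62 and 17 against 18 cells), genes past 2-fold in each library are given first. These were 39 genes on the higher side (3.39%) and 18 on the lower (1.57%).

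Inmt, an amine N-methyltransferase (chromosome 6, 55170626 to 55175043), came first of the 39 when ranked by the smaller of the ratios in the libraries. It had 91 UMIs in the F3+ or Icam1+ cells and 11 in the rest of the control gate, and 195 and 5 in the D-CAN gate (log2 3.19, interval 2.34 to 4.30, and 4.21, interval 3.10 to 5.98). Igfbp3, which binds IGF1, followed with 48 against 4 and 35 against 2 UMIs (3.63 and 2.89). Tmem176b and Tmem176a, paired membrane proteins that lie side by side, stood at 2.50 and 2.26 in the control and at 2.46 and 1.35 in the D-CAN library. Apoe stood at 18506 against 2312 CPM in the control and at 9286 against 3005 in the D-CAN library. Of the 1169 control Apoe UMIs of the F3+ or Icam1+ cells, 919 lay in 4 cells, and so did 146 of the 168 of the rest. Clu (clusterin) stood at 3.83 and 2.69, with 75 of its 86 D-CAN UMIs in 1 cell. The D-CAN cell with 345 Cxcl13 UMIs counted among the F3+ or Icam1+ cells through 1 Icam1 UMI. Whether the Clu UMIs lay in that cell was not tested. Cxcl12 was among the 39, with 2818 against 1005 CPM in the control (1.48, interval 1.09 to 1.90) and 2126 against 937 in the D-CAN library (1.17, interval 0.72 to 1.67). In the control 149 of its 178 UMIs lay in 4 of the 20 F3+ or Icam1+ cells, and the other 16 stood at 777 CPM. The rest had 40 of its 73 UMIs in 4 cells. Its 1005 CPM includes those cells, so it cannot be set against the 777. The control values of Inmt (74 of 91 UMIs in 4 cells) and Igfbp3 (47 of 48) were carried by few cells as well. The counting intervals do not cover this spread between cells.

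Of 8 complement genes tested, 6 were 2-fold higher in the F3+ or Icam1+ cells over both libraries, beside 6.53% of all genes tested. Past 2-fold in each library were C3 (2.11 and 1.87), the central component, C4b (1.57 and 2.87), and C7 of the membrane attack complex (1.58 and 3.66). Few cells carried these control values as well. In the F3+ or Icam1+ cells, 200 of 241 C3, 64 of 99 C4b and 17 of 19 C7 UMIs lay in the 4 highest cells. Of the list of genes reported for the F3 (CD142) population, 5 were tested and 4 were higher in both libraries, beside 3.39% of all genes tested. These were Igfbp3, Cygb (2.37 and 1.87), a globin of fibroblasts, Gdf10 (1.30 and 1.55), a BMP family member, and Fmo2 (1.58 and 3.21). In the control F3+ or Icam1+ cells, 4 cells held 47 of 48 Igfbp3, 17 of 22 Gdf10, 6 of 6 Fmo2 and 35 of 60 Cygb UMIs. Bgn, the fifth, stood at 0.28 and 0.42. Clec11a and Meox2 of the same list had too few UMIs, 13 and 12 over the gate. Penk, Gas6, Mmp3, Serpina3n and Selenop were others of the 39, and so were the immediate early genes Egr1 and Ier3.

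On the lower side stood Vcan (-2.43 and -1.43), Oaf (-2.35 and -2.19), Ptn (pleiotrophin, -1.19 and -3.14), Hsd11b1 (-1.67 and -1.29), Timp3 (-1.91 and -1.02) and the proteoglycan Aspn (-1.38 and -1.10). Counts behind several were small: Timp3 had 1 UMI against 6 in the control library, and Vcan 2 against 3 in the D-CAN library. Pdgfra, Pdgfrb and Lpl were short of 2-fold in each library. Pdgfra stood at 0.65 (interval -0.06 to 1.38) in the control and at -0.44 (-0.96 to 0.11) in the D-CAN library, so the value over both (0.10) joins opposite signs. Pdgfrb stood at 0.42 and -0.44 and Lpl at 0.47 and -0.04. Gsn was higher in the F3+ or Icam1+ cells of the control library (1.42) and not of the D-CAN library (-0.22). None of the 8 interferon genes tested was 2-fold apart in both libraries, with Isg15 at -2.12 and -0.45. Without cells with a cell cycle UMI 66 genes were higher and 37 lower, and 46 of the 75 and 21 of the 72 were among them.

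**Figure D4:**
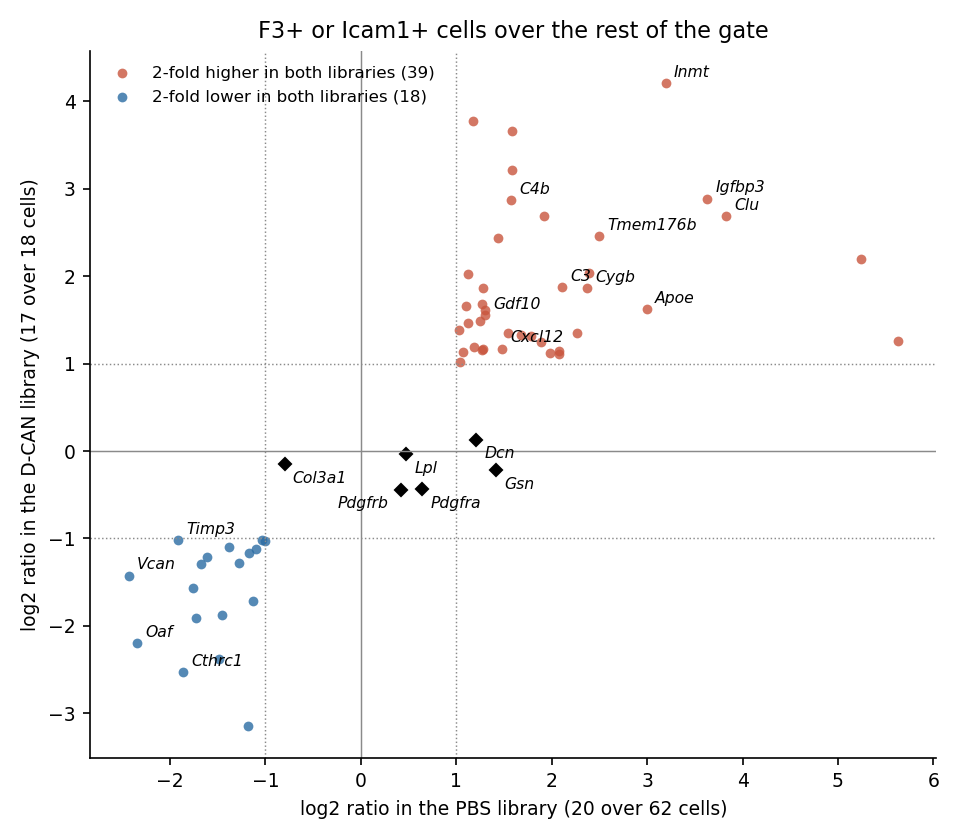
Log2 ratio of F3+ or Icam1+ cells over the rest of the gate in the PBS library (x axis) and the D-CAN library (y axis) for the 39 genes 2-fold higher and the 18 genes 2-fold lower in both. Black diamonds show Dcn, Col3a1, Gsn, Lpl, Pdgfra and Pdgfrb for comparison, and dotted lines mark 2-fold. Inmt lies at 3.19 and 4.21, Cxcl12 at 1.48 and 1.17, Pdgfra at 0.65 and -0.44 and Pdgfrb at 0.42 and -0.44.

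The gate was set against the 121 Pi16/Dpp4-positive cells, the population most like it, which passed every other step and had median depths of 1088 and 7441.5 UMIs. That the gate lacks Pi16 and Dpp4 is the rule and no finding. Of 3240 genes, 241 (7.44%) were 2-fold higher in the gate and 255 (7.87%) lower, with 120 (3.7%) and 145 (4.48%) past 2-fold in both libraries. Cxcl12 stood at 1848 and 1718 CPM in the control and D-CAN gates and at 324 and 411 in the positive cells (log2 2.51 and 2.06). Its scavenging receptor Ackr3 went the other way, with 81.0 and 40.1 CPM in the gates and 347 and 628 in the positive cells (-2.04 and -3.86). The leukocyte list stood at 1207 and 127 CPM in the gates and at 397 and 31.0 in the positive cells. All 3 of its tested genes were 2-fold higher in the gate, Cd74 and Igkc in both libraries and Cd52 over both, and their part in the other differences was not tested. Pdgfra stood at 0.77 and 1.57 and Pdgfrb at 0.86 and 1.85, both past 2-fold in the D-CAN library alone.

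Committed preadipocyte genes stood on the higher side, 10 of 11 tested over both libraries and 9 in each library, with a median log2 ratio of 2.68 against 0.02 for all tested genes. Apoe stood at 4.29 and 2.36, Sparcl1, a matricellular protein, at 4.90 and 4.12, Lpl at 1.71 and 3.57, and Fabp4, the fatty acid carrier of preadipocytes and adipocytes, at 1.13 and 3.38. The control value of Apoe was carried by few cells. Of its 1337 UMIs in the control gate 919 lay in 4 cells, and 29 of 82 cells had any. Icam1, which the gate did not use, had 11 and 16 UMIs in the gates and 4 and 6 in the positive cells (2.04 and 1.94). Cebpb, an early regulator of fat cell formation, was the exception at -1.32 and -0.61. Several members are basement membrane collagens: Col15a1 stood at 2.73 and 6.09, Col4a1 at 2.26 and 2.88, and Col4a2 at 3.50 and 2.95. Of 12 collagens tested, 9 were 2-fold higher and 2 lower. F3 stood at 0.35 and -0.62, with 33 and 119 UMIs in the positive cells. Over both libraries it came to -0.33, but to 1.04 with each cell weighted equally and to 1.19 without the deepest cell of each library.

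Of the progenitor list without Pi16 and Dpp4, 12 of 13 genes were 2-fold lower in the gate, 10 of them in both libraries, with a median of -2.05. Anxa3 stood at 1382 and 1225 CPM in the positive cells and at 140 and 13.4 in the gates. Sema3c stood at -1.56 and -6.02 and Fn1 at -1.31 and -4.29, so both were nearer to the positive cells in the control gate. Of the control gate's UMIs, 21 of 38 for Sema3c and 113 of 203 for Fn1 lay in the 26 cells with a cell cycle UMI. Edn1, the gene of endothelin 1, had 98 and 94 UMIs in the positive cells and none in either gate, at least 41.0-fold lower against 3 counts over the gate. Car8, with 29 and 37 UMIs in the positive cells, also had none in the gates (at least 14.1-fold). Cldn3, Mrgprg, Dact2, Sema3e, Bmp3 and Gm45187 completed the genes at 0 among the ranked ones. At the other end, Tmem176b had 61 and 51 UMIs in the gates and 1 and 0 in the positive cells, and Tmem176a 43 and 49 against 0 and 1. Col15a1 and Ptn were next among genes with UMIs in over 20 cells. Ube2c and Top2a, also ranked there, are on the cell cycle list, so their UMIs lay by definition in the control cells with a cell cycle UMI. Car3, ranked there as well, had 44 of its 45 UMIs in 1 other control cell.

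The IGF axis was split between both populations in each library. Igf1 (1.68 and 1.85), Igfbp3 (2.88 and 2.07) and Igfbp7 (1.17 and 1.51) were higher in the gate, and Igfbp4 (-1.83 and -2.10), Igfbp5 (-1.33 and -2.67) and Igfbp6 (-1.65 and -1.94) lower. Of 8 complement genes 3 were 2-fold higher in the gate over both libraries and 1, C2, in each, while C3 stood at 0.09 and -0.23. None of 15 immediate early and heat shock genes was 2-fold apart over both libraries.

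**Figure D5:**
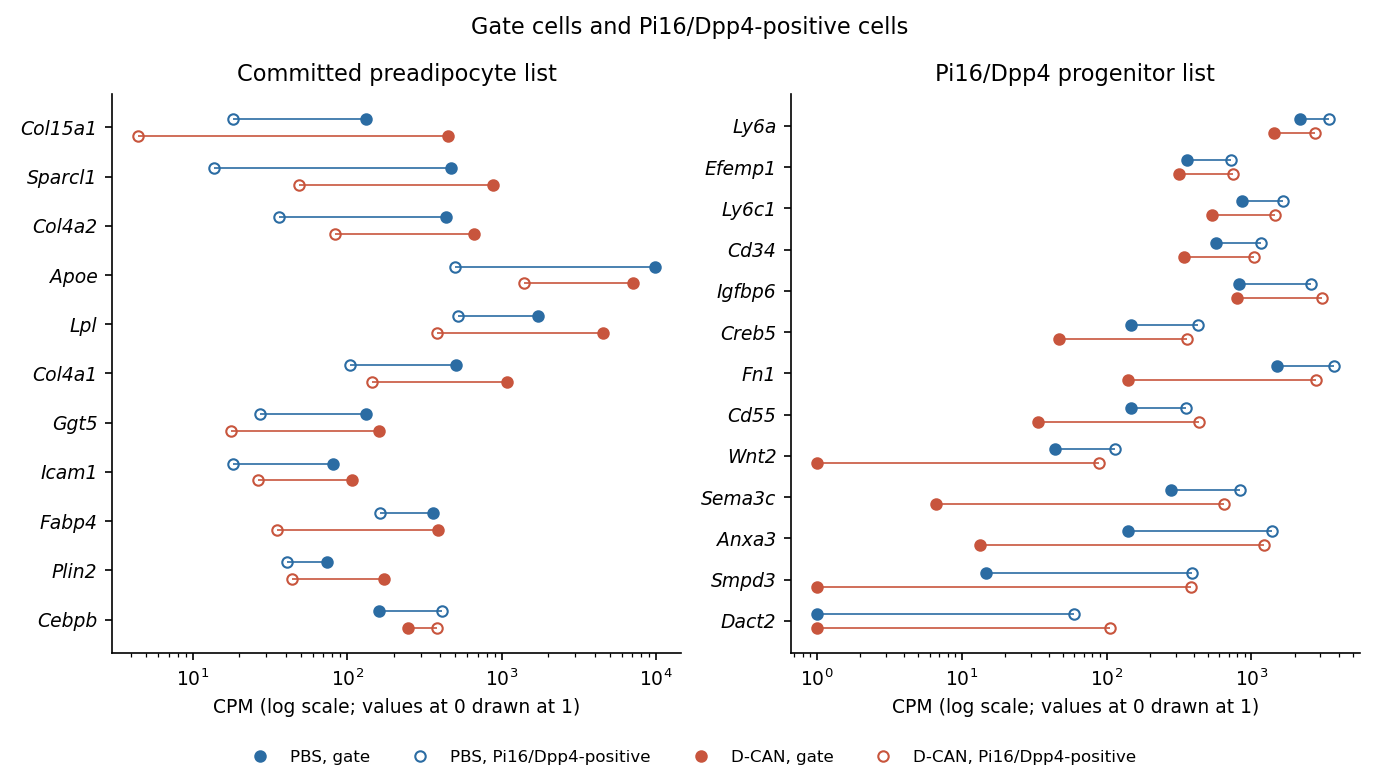
CPM (x axis, log scale, 0 drawn at 1) of the tested genes of the committed preadipocyte list (left) and the Pi16/Dpp4 progenitor list (right) in the gate (filled) and in Pi16/Dpp4-positive cells (open) of the PBS (blue) and D-CAN (red) libraries. Of the left-hand genes, all but Cebpb lie higher in the gate in both libraries, and all right-hand genes lie lower. The D-CAN gate lies below the control gate for Fn1 (140 and 1494 CPM) and Sema3c (6.69 and 280 CPM). Of these control UMIs, 113 of 203 and 21 of 38 lay in the 26 cells with a cell cycle UMI.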

How the data were processed

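The authors counted UMIs per gene and cell with Cell Ranger (the methods and the submitters' processing notes give version 3.1.0, with STAR 2.6 in the notes; the header of the SAT D-CAN table gives 3.0.2) on mm10 with Ensembl 93 genes. They deposited these counts for called cells of 4 libraries, without normalization. The kit was a 10x 3′ kit, whose version differs between the labels and the methods. One UMI tags 1 molecule at its 3′ end, so CPM do not scale with transcript length. Each table held 31053 genes, and the 36 symbols listed more than once were summed.

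The gate was applied to the raw counts. No doublets were removed and no caller was run here. UMIs were summed over the cells of a set, and ratios were taken after adding 0.5 UMI to each sum, for genes with 30 or more UMIs over both sets, without the genes of the rule or split. A ratio of 2-fold or more counted as called. Ratio intervals are exact conditional intervals. A limit against 0 uses 3 counts over the set. Cells were thinned at random to 500 or 1000 UMIs for shares, leaving out shallower cells. The members, the 26 gene lists and the naming rule were chosen with earlier results of these data known. The naming rule takes list members, the 10 highest and 10 lowest genes of each comparison and the 15 most abundant genes, leaving out mitochondrial and ribosomal protein genes. Gas6, Penk, Serpina3n and Selenop, which are outside it, were chosen after their values were seen. The values of 1 list gene are not reported here. Python 3.11.15 with numpy 2.4.6, scipy 1.17.1, pandas 2.3.3 and matplotlib 3.10.9 was used, and the ratio and thinning steps were tested on simulated counts. Positions are from GENCODE for GRCm38.

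Alternatives were other gene minimums, gate thresholds, denominators and UMI minimums, 1 UMI added, median scaling, equal weight per cell, at most 20% mitochondrial UMIs, leaving out the deepest cell of each library or cells with Ccl19, Ccl21a or Cxcl13, and thinning.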

Additional observations from a re-analysis of the deposited data

How the results depend on the processing

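No paired analysis was possible because each condition had 1 SAT library. The D-CAN minus PBS difference in the gate's share changed sign to 1.60 points of cells without Ptprc, Cd79a and Cd3e, to 4.29 points of all gate and Pi16/Dpp4-positive cells, and to 0.16 points with 2 or more Gsn UMIs, and kept its sign under the other 7 alternatives, between -1.64 and -0.23 points. The F3+ or Icam1+ difference kept its direction under 11 alternatives, but its interval included 0 under 6, namely 500 or more genes (20.2, -3.10 to 42.0), gate thresholds of 3 (20.5, -0.95 to 41.2), the gate after thinning (14.1, -5.79 to 33.9), 2 or more Gsn UMIs (15.2, -8.44 to 37.5), and gate cells thinned to 500 (11.9, -3.38 to 30.1) or 1000 UMIs (4.72, -14.1 to 25.0). Counts of genes moved with the UMI minimum. For D-CAN over PBS, 20 UMIs gave 148 higher and 206 lower, 100 UMIs 24 and 22, equal weight per cell 142 higher, thinning to 500 UMIs 14 and 24, leaving out cells with a cell cycle UMI 54 and 30, and 2 or more Gsn UMIs 53 and 33. Higher genes were then 64.3% and 61.6% of those called, against 43.7% over the whole gate. For F3+ or Icam1+ over the rest, 20 UMIs gave 128 and 164, 100 UMIs 24 and 9 (72.7% higher, against 51.0%), thinning 14 and 14, and the lower count was 47 without cells with Ccl19, Ccl21a or Cxcl13, 37 without cells with a cell cycle UMI (64.1% higher) and 34 with 2 or more Gsn UMIs (65.7% higher). Against Pi16/Dpp4-positive cells, 20 UMIs gave 426 higher, 100 UMIs 61 and 102 (37.4% higher, against 48.6%), equal weight 369 higher, leaving out cells with Ccl19, Ccl21a or Cxcl13 157 and 154, and thinning 41 and 45. The minimums and thinning change how many genes are tested; for the other settings the cause was not tested. Of 210, 166 and 179 values of named genes in the 3 comparisons, 192, 157 and 171 kept their direction and their side of 2-fold, and 9, 8 and 2 changed sign. For D-CAN over PBS, equal weight turned Cxcl12 to 0.28, Apoe to 0.84 and F3 to -0.30. Leaving out cells with Ccl19, Ccl21a or Cxcl13 turned Cxcl12 to 0.55 and Apoe to 0.29, and thinning to 500 UMIs turned them to 0.64 and 0.84. Pdgfrb turned to -0.16 without cells with a cell cycle UMI and to -0.20 with 2 or more Gsn UMIs. For F3+ or Icam1+ over the rest, 2 or more Gsn UMIs turned Cxcl13 to -1.46, Lpl to -0.092 and Sparcl1 to -0.26, and leaving out the deepest cell of each library turned Sparcl1 to -0.29 and Pdgfra to -0.022. Pdgfrb, at 0.00, came to 0.045 with median scaling, 0.25 with equal weight and 0.0091 with at most 20% mitochondrial UMIs. Against Pi16/Dpp4-positive cells, F3 turned to 1.04 with equal weight and 1.19 without the deepest cell of each library. The restrictions on cell cycle and Gsn UMIs were chosen after seeing the data. Depth limits what the control gate can show, with 41 of 82 cells under 1000 UMIs.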
